A study of Homo sapiens with 6 samples.

Results

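The genes of 10 proteins that hepatocytes secrete into the blood were followed in open chromatin: ALB, APOA1, APOA2, APOB, TTR, SERPINA1, FGB, TF, AHSG and APOC3. They were taken by name from 20033 protein-coding genes. A region of open chromatin was given to a gene when its strongest summit lay within 1 kb of any annotated transcription start, inside the gene or within 10 kb of it (GENCODE, hg38). Regions of the 6 libraries that overlapped were joined into 166021 sites, and 29 of these belonged to the 10 genes, with 2 of the 29 shared by APOA1 and APOC3. The libraries were made by ATAC-seq, which tags DNA left free by nucleosomes, from HLF, a line established from a human hepatocellular carcinoma. Cells received 5 μM SNDX-5613 (revumenib), a small molecule that keeps menin from binding MLL1, or the vehicle DMSO. Each group held 3 libraries. By the study's methods a replicate was a dish of cells divided between treated and untreated, so p-values cover the spread between dishes of this line. The labels give 24 h of treatment and the study's methods a longer one, so the exposure behind the values is uncertain.

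Hepatocytes make most of the proteins of plasma, and the liver uses factors of the HNF4, FOXA and C/EBP families to switch these genes on. Such factors bind the promoter and nearby enhancers, which are open in cells that express the gene. Genes of this class are often silent in poorly differentiated liver cancer, and the level of their RNA was not analysed here.

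Promoter sequences of 4 of the genes are shown because none of the 6 libraries had a region within 1 kb of their starts. They are RefSeq sequence of GRCh38.p14, 5′ to 3′ on the strand of the gene, from position -250 to position -35 before the start: ALB at chr4:73404037-73404252 (plus strand), APOA2 at chr1:161223663-161223878 (minus strand), FGB at chr4:154562761-154562976 (plus strand) and AHSG at chr3:186612810-186613025 (plus strand). Capitals mark every match, on either strand, to the short motifs TATAAA of the TATA box, CCAAT of the CCAAT box, TGTTTAC of FOXA factors, CAAAGTCCA of HNF4, TTGCNNAA of C/EBP factors, GGGCGG of SP factors and TGANTCA of AP-1.
ALB promoter: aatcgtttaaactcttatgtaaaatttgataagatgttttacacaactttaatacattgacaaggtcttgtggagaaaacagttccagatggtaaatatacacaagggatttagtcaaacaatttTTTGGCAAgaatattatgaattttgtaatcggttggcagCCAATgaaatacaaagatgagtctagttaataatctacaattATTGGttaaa
APOA2 promoter: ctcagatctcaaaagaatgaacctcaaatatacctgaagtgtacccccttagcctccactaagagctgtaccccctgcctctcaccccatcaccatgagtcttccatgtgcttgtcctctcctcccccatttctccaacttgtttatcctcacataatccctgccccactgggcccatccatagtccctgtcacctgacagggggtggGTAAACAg
FGB promoter: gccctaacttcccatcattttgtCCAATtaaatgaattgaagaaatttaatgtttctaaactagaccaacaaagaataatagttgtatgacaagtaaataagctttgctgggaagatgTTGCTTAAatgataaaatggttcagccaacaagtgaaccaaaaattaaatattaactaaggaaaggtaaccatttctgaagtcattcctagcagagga
AHSG promoter: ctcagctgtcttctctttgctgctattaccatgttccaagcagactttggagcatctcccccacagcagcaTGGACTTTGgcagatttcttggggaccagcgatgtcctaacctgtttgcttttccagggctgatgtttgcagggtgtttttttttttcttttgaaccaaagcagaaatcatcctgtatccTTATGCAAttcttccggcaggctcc

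A promoter of 300 bases, 250 before to 50 after the start, was found for 6 of the 10 genes in the RefSeq table, and APOA1, APOB, TTR and APOC3 had no entry. TTGCNNAA, the letters of a C/EBP element, occurred in 4 of these 6 promoters (ALB, FGB, TF and AHSG), against 10.6% of 27305 RefSeq promoters. CCAAT occurred in 3 of the 6 (ALB, FGB and TF), against 35.7% of all promoters, and in TF it overlapped the C/EBP match. The FOXA letters were found in APOA2 only, against 3.41% of all promoters, and the HNF4 letters in AHSG only, against 0.359%. GGGCGG, common in promoters at 44.6%, was found in TF only. None of the 6 held TATAAA or the AP-1 letters, where TATAAA stood in 11.95% of all promoters and the AP-1 letters in 7.76%. The 6 promoters had a median of 51.2% G and C, from 33.0% in FGB to 61.3% in TF, against 58.3% over all promoters. Their median ratio of observed to expected CpG was 0.326, against 0.580 over all promoters, and TF stood highest at 0.825. These matches describe letters and were not tested as sites of binding.

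The open sites that carry the values given below are shown for FGB and AHSG as 201 bases of hg38, plus strand, centred on the strongest summit, with the same motifs in capitals. They lie at chr4:154559494-154559694, chr4:154560985-154561185, chr4:154570410-154570610 and chr3:186617123-186617323. A pair of them are upstream of FGB, another is in an exon of FGB and the last is in an exon of AHSG.
FGB site 3417 bp upstream: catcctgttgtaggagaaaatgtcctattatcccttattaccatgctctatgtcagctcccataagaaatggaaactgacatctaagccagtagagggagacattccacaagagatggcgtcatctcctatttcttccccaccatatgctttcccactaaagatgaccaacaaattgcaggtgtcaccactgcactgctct
FGB site 1926 bp upstream: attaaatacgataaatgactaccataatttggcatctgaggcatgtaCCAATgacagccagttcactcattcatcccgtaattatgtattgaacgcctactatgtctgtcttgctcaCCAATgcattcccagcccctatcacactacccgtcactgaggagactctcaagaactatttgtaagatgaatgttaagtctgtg
FGB site 7499 bp downstream: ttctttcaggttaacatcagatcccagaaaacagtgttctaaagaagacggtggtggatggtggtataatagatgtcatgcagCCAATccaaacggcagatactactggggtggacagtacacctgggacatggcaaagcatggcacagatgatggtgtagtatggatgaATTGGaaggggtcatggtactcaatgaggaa
AHSG site 4163 bp downstream: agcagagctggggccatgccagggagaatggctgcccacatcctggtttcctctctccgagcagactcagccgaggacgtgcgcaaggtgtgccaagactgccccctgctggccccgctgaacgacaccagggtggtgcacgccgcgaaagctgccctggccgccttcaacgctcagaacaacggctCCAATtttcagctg

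CCAAT occurred in 8 of the 29 sites of the 10 genes and in 24.3% of all sites, and the AP-1 letters in 1 of 29 and 15.5%. The FOXA and HNF4 letters occurred in 0 of the 29, although they were also rare over all sites, at 2.64% for FOXA and 0.234% for HNF4. C/EBP letters were found in 2 of the 29, both downstream of APOB, against 7.27% of all sites. GGGCGG was found in 3 of the 29 and 14.5% of all sites, and TATAAA in 2 and 6.63%. The 29 sites had a median of 51.2% G and C and all sites 52.2%.

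Relative depth was read from the peak lists, since read numbers were not analysed here, and its effect apart from library quality was not tested. The background pileup is the most frequent background, in stacked fragments, solved at a library's called summits. It was 0.997 to 1.51 in 5 libraries and 0.211 in SNDX-5613 replicate 3, which is 16.2% of the median of the others. That library had 40568 regions against 88026 to 113675, and a site absent from it may only have been too weak for its depth. In such bulk libraries fewer cells with an open site and less opening in each cell cannot be told apart. Peak strength is given here in 3 ways: the rank of a site within its library's list by -log10 p, as a percentile with 100 the strongest; the same rank among the 33405 sites seen in all 6 libraries; and the summit pileup divided by the library's background pileup, called height. The list of SNDX-5613 replicate 3 holds strong sites only, which lowers each site's percentile in it. The other measures are not scaled by the length of the list, but that list decides which sites are shared. A weak site is shared only where it was high enough in SNDX-5613 replicate 3 to be called. How far this raises the values of that library at weak shared sites was not tested.

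To determine whether the secretory genes were open at all, promoter regions were counted first. Regions within 1 kb of a start were rare at the 10 genes: 0 of 10 had one in all 6 libraries, against 63.6% of protein-coding genes, and 4 of 10 (APOB, TTR, SERPINA1 and TF) had one in at least 1 library, against 80.1%. Of the 10 genes, 2, 3 and 2 had a promoter region in DMSO and 4, 3 and 0 in SNDX-5613 libraries. The 0 belonged to the shallow SNDX-5613 replicate 3. The groups overlapped, with means of 2.33 ± 0.577 and 2.33 ± 2.08 genes (SD, n = 3 each; exact permutation p = 1, two-sided, with 0.1 the least that 3 against 3 libraries can give). Without SNDX-5613 replicate 3 the SNDX-5613 mean was higher by 1.17 genes (exact permutation p = 0.3). Within 3 kb of a start, 8 of 10 genes had a region in at least 1 library, against 86% of protein-coding genes, and 5 of 10 (APOA1, APOA2, TTR, FGB and AHSG) in all 6, against 68.1%. Per library this came to 6.33 ± 0.577 genes with DMSO against 6.67 ± 1.53 with SNDX-5613 (mean and SD over 3 libraries each, exact permutation p = 1), and ALB and APOC3 still had none. With only the canonical start of each gene counted, SERPINA1 alone had a region, in 2 libraries, against 73.7% of protein-coding genes with such a region in at least 1 library. No promoter of the 10 went from absent in all DMSO to present in all SNDX-5613 libraries or the reverse, against 0.12% and 0.11% of protein-coding genes.

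**Figure D1:**
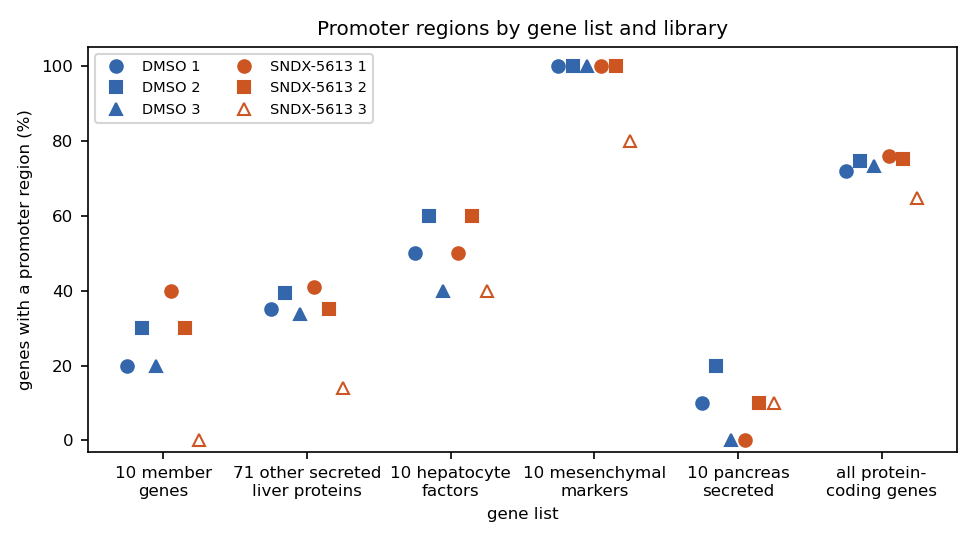
Share of genes (%, vertical axis) with a region within 1 kb of any annotated start, by gene list (horizontal axis), with 1 point for each library, DMSO in blue and SNDX-5613 in orange (open triangle: the shallow SNDX-5613 replicate 3). The 10 secretory genes lie between 0% and 40% in every library, below all protein-coding genes, which lie between 64.8% and 75.8%.

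Other gene lists were set beside them to see what kind of cell the libraries describe. Of 71 other plasma proteins made by hepatocytes, 25, 28 and 24 had a promoter region in DMSO and 29, 25 and 10 in SNDX-5613 libraries, a difference of means of -4.33 genes (SDs of 2.08 and 10.0, n = 3 each, exact permutation p = 0.9). Across the 6 libraries, 35 of the 71 had none and 36 had one in at least 1 library, against 80.1% of protein-coding genes. A promoter region in every library was found for 10 of the 71, against 63.6% of protein-coding genes. These 10 were APOC1, APOM, HPX, SERPINA6, SERPINC1, F5, F12, C5, CP and PROS1, and in 4 of them (APOM, F12, C5 and PROS1) a start of another gene lay within 1 kb of the strongest region. With only canonical starts counted, 4 of the 71 had a region in every library (APOC1, SERPINA6, F5 and PROS1), against 58.1% of protein-coding genes. Of 10 liver transcription factors, 4 to 6 had a promoter region in each library, against 64.8% to 75.8% of protein-coding genes. Those with a region in all 6 libraries were FOXA1, FOXA3, CEBPA and ONECUT1, which were named after their values were seen. The strongest region of FOXA3 lay 34 bp from a start of SYMPK, another gene, and FOXA3 had a region at its canonical start in 1 library. HNF4A, a central regulator of these genes, had 0 promoter regions in 6 libraries. Of 10 mesenchymal markers, such as VIM and FN1, all 10 had a promoter region in 5 libraries and 8 of 10 in SNDX-5613 replicate 3. At canonical starts alone, 8, 9 and 8 of these markers had a region in DMSO and 8, 8 and 5 in SNDX-5613 libraries. Of 10 pancreatic secretory genes, taken as secreted proteins of another organ, 0 to 2 had a promoter region in each library. Against the labelled liver origin, regions were therefore found at some liver factors and a minority of secretory promoters, and none was called at ALB.

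ALB encodes serum albumin, the main protein of plasma (chr4:73397114-73421482, plus strand, 15 annotated starts). ALB had 0 regions in each of the 6 libraries inside the gene or within 10 kb, a state shared by 6.1% of protein-coding genes. The nearest site of any library lay 30267 bp downstream of the canonical start, within the neighbouring AFP gene, and was seen in DMSO replicate 2 only. The nearest site of the 5 deeper libraries lay 42249 bp downstream, also in AFP, at percentiles of 63.1, 78.6 and 76.3 in DMSO and 73.7 and 69.2 in SNDX-5613 replicates 1 and 2. The nearest site seen in all 6 libraries was 116703 bp away. AFP, the fetal counterpart of albumin, had a region at an alternative start in the same 5 libraries, and AFM, the next gene of the cluster, had none at its promoter.

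In all 10 genes together, DMSO libraries had 20, 20 and 19 regions and SNDX-5613 libraries 21, 18 and 8. The means were 19.7 ± 0.577 and 15.7 ± 6.81 regions (SD, n = 3 each), a difference of -4, within the spread of the SNDX-5613 libraries (exact permutation p = 0.6). As a share of the list, the genes held 2.27, 1.76 and 1.97 of every 10000 regions in DMSO and 1.96, 1.86 and 1.97 in SNDX-5613 libraries (exact permutation p = 0.8). Among the 40568 strongest regions of each library, the number in the shallowest list, they held 8, 8 and 10 in DMSO and 9, 10 and 8 in SNDX-5613 libraries. At equal list length the low count of SNDX-5613 replicate 3 was no longer apart from the rest.

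Of the 29 sites, 8 were seen in all 6 libraries, 6 in the 5 deeper libraries, 8 in 2 to 4 libraries and 7 in 1 library. Over the genome, 20.1% of sites were seen in all 6 libraries. By place, 11 of the 29 were upstream of a gene, 6 downstream, 6 in introns and 6 in exons. Within 1 kb of any annotated start of the genes lay 5, and 1 within 1 kb of a canonical start. Near the start of another gene (within 1 kb) lay 3 sites, of which 2 were at TOMM40L beside APOA2 and 1 at SRPRB beside TF. Of the 29, the authors' consensus sets held 16 for both treatments, 1 for DMSO only, 3 for SNDX-5613 only and 9 for neither. The shares of all sites in these places and consensus sets were not counted. The median gene of the 10 had 3 sites, against 5 over protein-coding genes.

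**Figure D2:**
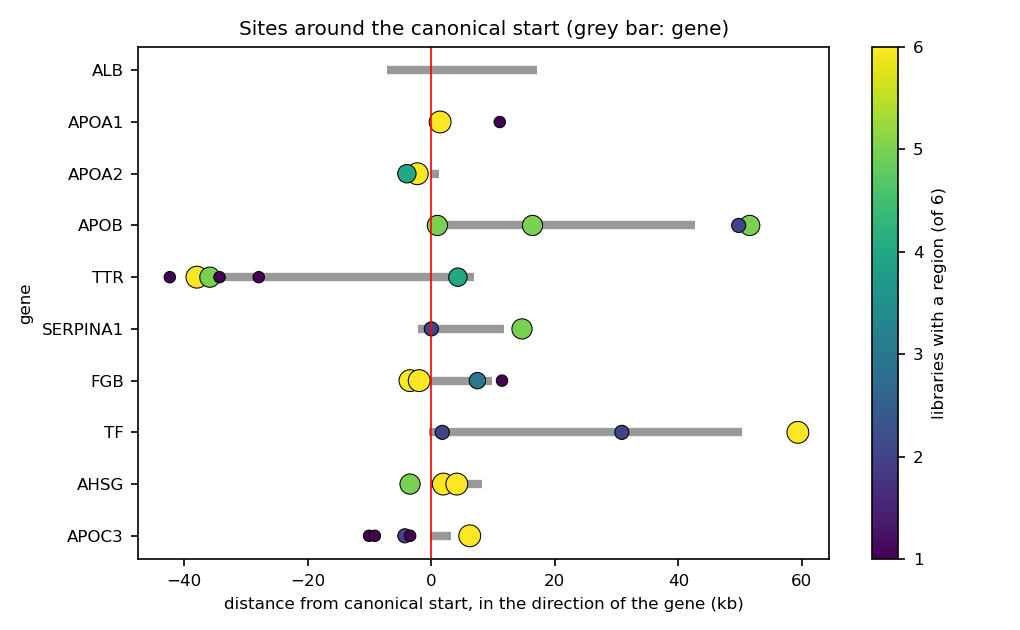
Distance of each site's strongest summit from the canonical start of its gene (kb, horizontal axis, in the direction of transcription), with 1 row for each of the 10 genes, the gene as a grey bar and the colour and size of a point giving the number of libraries with a region there. ALB has no point, and the red line of the canonical start is met only by SERPINA1, in 2 libraries.

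To ask whether treatment opened or closed any of these sites, sites with a region in 3 of 3 libraries of a group and 0 of 3 of the other were counted. Gained sites numbered 0 of 29, against 0.147% of all sites, and lost sites 1 of 29, against 1.18%. The lost site was in an exon of FGB, 7499 bp downstream of its start. It was weak, at percentiles of 17.3, 30.9 and 17.4 and pileups of 10, 12 and 10 in DMSO, where the lowest called pileup at background was 6 or 7. An exact permutation test of such a site cannot go below p = 0.1.

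**Figure D3:**
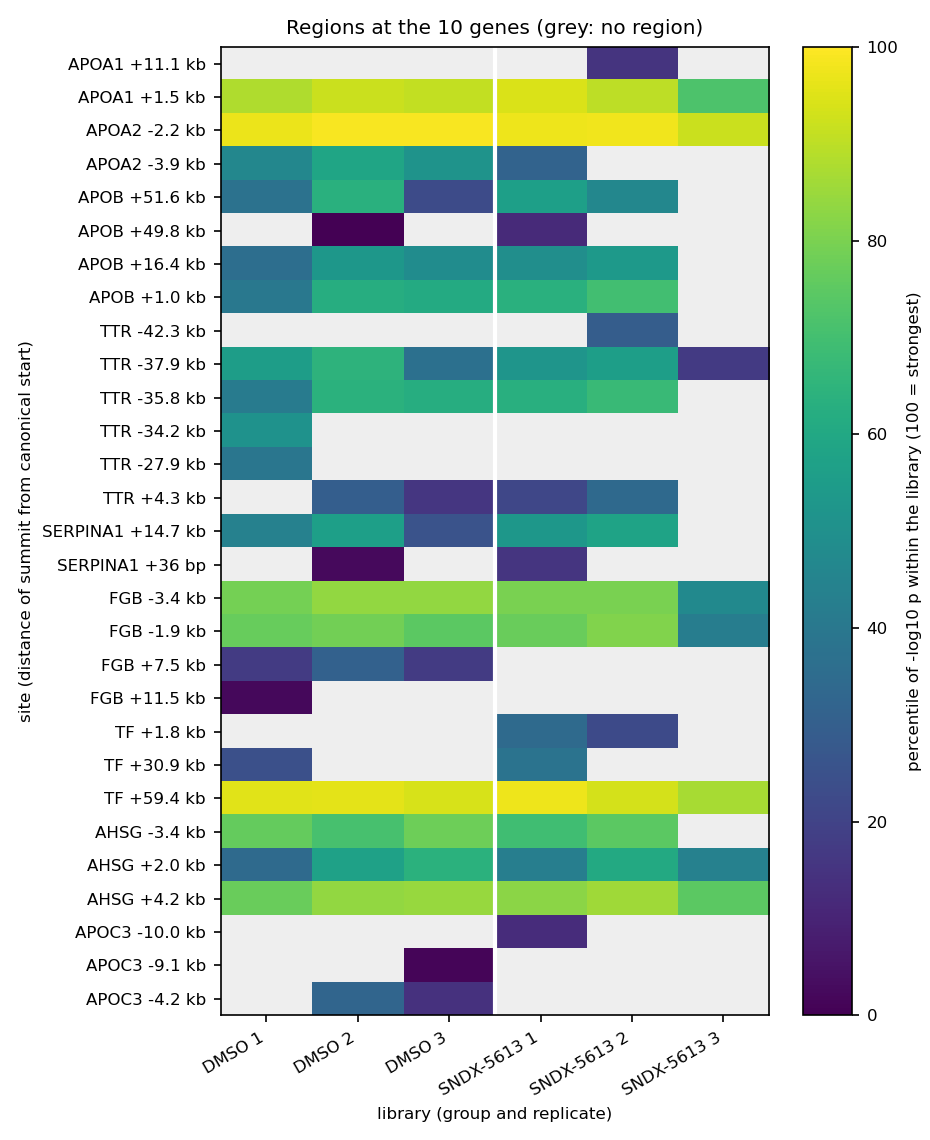
Percentile of -log10 p within the library's own list (colour, 100 the strongest) for the 29 sites (rows, named by gene and distance from the canonical start) in the 6 libraries (columns), with grey where no region was called. The sites of APOA2, APOA1 and TF at the bright end appear in every column, and the column with the most grey cells is that of SNDX-5613 replicate 3, which had a region at 8 of the 29 sites.

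The apolipoproteins package lipids for transport in the blood. APOA1, the main protein of high-density lipoprotein (chr11:116835751-116837622, minus strand), had 0 promoter regions and a strong site in an exon, 1461 bp downstream of its start (chr11:116835835-116836470), which is also 6254 bp downstream of the start of APOC3. Its percentiles were 88.0, 91.9 and 90.7 in DMSO and 94.4, 89.9 and 72.0 in SNDX-5613 libraries, and its heights 89.3, 96.6 and 86.4 against 111, 75.5 and 80.6. The groups overlapped on both measures (exact permutation p = 0.8 and p = 1). The site was rich in G and C, at 67.2% of 201 bases. A second APOA1 site, 11106 bp downstream, was called in SNDX-5613 replicate 2 only.

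APOC3, an inhibitor of triglyceride clearance (chr11:116829706-116833072, plus strand), shares this cluster with APOA1 and had no promoter region. Besides the site inside APOA1 it had 4 weak sites upstream, each in 1 or 2 libraries. The site 4248 bp upstream was called in DMSO replicates 2 and 3, at percentiles of 32.6 and 14.4, and the site 3391 bp upstream, the same as the second site of APOA1, in SNDX-5613 replicate 2, at 14.9. Of the neighbours in the cluster, APOA5 had a promoter region in 5 libraries and APOA4 in 0.

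APOA2 encodes another protein of high-density lipoprotein (chr1:161222292-161223631, minus strand). Its strongest site (chr1:161225501-161226147), 2238 bp upstream, had the highest mean percentile of the 29 in both groups, although the TF site described below ranked above it in SNDX-5613 replicate 1 and by fold enrichment. It stood at percentiles of 97.1, 99.2 and 99.0 in DMSO and 97.4, 97.7 and 92.2 in SNDX-5613 libraries. The start of TOMM40L, a gene transcribed the other way, lay 73 bp from its summit, and the 201 bases around the summit held 4 CCAAT matches, so by position this site lies at the promoter of a neighbour. Its heights were 186, 230 and 192 in DMSO and 176, 153 and 175 in SNDX-5613 libraries, means of 203 ± 23.9 and 168 ± 13.2 (SD, n = 3 each, exact permutation p = 0.1). All 3 SNDX-5613 heights were below all 3 DMSO heights, as they were at 12.6% of shared sites. On ranks among shared sites the groups overlapped. The limma fit gave a difference of -0.35 ± 0.17 (SE) in normal scores, with an unadjusted p of 0.06 and an adjusted p of 0.511. The second site, 3921 bp upstream and 335 bp from another start of TOMM40L, was called in all 3 DMSO libraries at percentiles of 46.2, 58.8 and 51.2, and in SNDX-5613 replicate 1 at 32.0. It was not called in SNDX-5613 replicates 2 and 3. The pileup of this site was 45, 61 and 56 in DMSO and 37 in SNDX-5613 replicate 1.

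APOB, the structural protein of low-density lipoprotein, is a long gene (chr2:21001429-21044073, minus strand) with 4 sites, of which 3 were called in the 5 deeper libraries and 0 in SNDX-5613 replicate 3. The site in its intron, 1014 bp from the canonical start and 903 bp from the nearest annotated start, was its promoter region (chr2:21042787-21043514). Its percentiles were 39.9, 62.3 and 61.2 in DMSO and 63.6 and 69.9 in SNDX-5613 replicates 1 and 2, with pileups of 15, 27 and 29 against 29 and 38. The pileups of SNDX-5613 replicate 1 and DMSO replicate 3 were equal before division by background. Heights were 15.05, 20.7 and 20.04 in DMSO and 23.02 and 25.2 in SNDX-5613 replicates 1 and 2. Both SNDX-5613 values were above all 3 DMSO values in percentile and in height. The share of all sites with such an order was not counted. SNDX-5613 replicate 3 could not be ranked. Without it, the limma fit gave this site an unadjusted p of 0.116 and an adjusted p of 0.544. The intronic site 16412 bp downstream ranged from a percentile of 36.0 to 53.8 over the 5 libraries, and the site 51565 bp downstream, past the end of the gene, from 22.8 to 63.6. The latter range was spanned by DMSO libraries alone. A weak site 49775 bp downstream was called in DMSO replicate 2 and SNDX-5613 replicate 1.

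TTR, transthyretin, carries thyroid hormone and retinol-binding protein (chr18:31557009-31598833, plus strand). Its sites clustered at an alternative start far upstream of the canonical one. The promoter site 35806 bp upstream of the canonical start, 938 bp from the alternative start, had percentiles of 41.5, 63.8 and 62.5 in DMSO and 63.1 and 67.7 in SNDX-5613 replicates 1 and 2, with no region in replicate 3. A site 37902 bp upstream was seen in all 6 libraries at low strength, with pileups of 25, 31 and 18 in DMSO and 23, 29 and 5 in SNDX-5613 libraries. Its heights were 25.1, 23.8 and 12.4 against 18.3, 19.2 and 23.7, and the groups overlapped (exact permutation p = 0.9). The site 34241 bp upstream, also within 1 kb of that start, was called in DMSO replicate 1 only, at a pileup of 22. The site nearest to the canonical start was 4336 bp away in an intron and was called in 4 libraries, 2 of each group, at pileups of 9 to 13. Like the other genes apart from SERPINA1, TTR had no region within 1 kb of its canonical start.

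Of the secreted proteins of coagulation, protease control and transport, SERPINA1, the elastase inhibitor alpha-1 antitrypsin (chr14:94376747-94390693, minus strand), had the only region at a canonical start, 36 bp from it. This region was called in DMSO replicate 2 at a pileup of 6 and in SNDX-5613 replicate 1 at a pileup of 8, percentiles of 2.63 and 15.4. These pileups were at or near the lowest that could be called, 6 in both libraries. A second site, 14711 bp downstream of the start and past the end of the gene, was called in the 5 deeper libraries at percentiles of 44.03, 56.3 and 25.5 in DMSO and 52.8 and 58.0 in SNDX-5613 replicates 1 and 2. It held the only AP-1 match of the 29 sites. Among its neighbours in the serpin cluster, SERPINA6, the carrier of cortisol, had a promoter region in all 6 libraries, and SERPINA3, SERPINA4 and SERPINA10 had one in 0.

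FGB encodes the beta chain of fibrinogen (chr4:154563011-154572807, plus strand), and a pair of sites upstream of it were seen in all 6 libraries while its promoter was not called in any. The site 3417 bp upstream (chr4:154559360-154559777) had pileups of 59, 77 and 83 in DMSO and 61, 70 and 10 in SNDX-5613 libraries. Divided by background, its heights were 59.2, 59.0 and 57.4 in DMSO and 48.4, 46.4 and 47.4 in SNDX-5613 libraries. The groups did not overlap, with means of 58.5 ± 1.00 and 47.4 ± 1.03 (SD, n = 3 each, exact permutation p = 0.1). The value of SNDX-5613 replicate 3 rests on a pileup of 10, and its 95% exact Poisson interval, from 22.7 to 87.2 in height, spans both groups. The intervals of the deeper libraries overlapped between groups too. In DMSO replicate 1 the interval ran from 45.0 to 76.3 and in SNDX-5613 replicate 1 from 37.0 to 62.2. The rank of the site among shared sites was also lower, at 50.5 ± 3.84 against 41.5 ± 3.73 (SD, n = 3 each, exact permutation p = 0.1). In the limma fit over all shared sites the difference was -0.23 ± 0.16 (SE) in normal scores, with an unadjusted p of 0.174 and an adjusted p of 0.643, so that it did not pass before or after adjustment.

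The second FGB site, 1926 bp upstream (chr4:154560666-154561265), had pileups of 55, 63 and 60 in DMSO and 55, 72 and 9 in SNDX-5613 libraries. Its heights were 55.2, 48.3 and 41.5 against 43.7, 47.7 and 42.7, and the groups overlapped (exact permutation p = 0.6). The difference between this pair of sites in their response was not tested. In the rest of the cluster, FGG, the gamma chain gene, had a promoter region in 4 libraries, 2 of each group, and FGA, the alpha chain gene, in 0. FGB had a further site 11475 bp downstream in DMSO replicate 1 only.

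TF, transferrin, carries iron (chr3:133746040-133796641, plus strand). Its promoter region, 1810 bp downstream of the canonical start and 63 bp from an alternative start, was called in SNDX-5613 replicates 1 and 2 only, at percentiles of 34.4 and 22.6 and pileups of 12 and 10. No DMSO library had it, and with SNDX-5613 replicate 3 left out it was the only gained site of the 10 genes, a state then met by 2.43% of all sites. The site 59358 bp downstream (chr3:133805616-133806405) was open in all 6 libraries, at heights of 131, 130 and 101 in DMSO and 135, 85.4 and 109 in SNDX-5613 libraries (exact permutation p = 0.7). It lay 64 bp from a start of SRPRB, the neighbouring gene for a subunit of the signal recognition particle receptor. A site 30866 bp downstream was called in DMSO replicate 1 and SNDX-5613 replicate 1, at pileups of 10 and 13.

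AHSG encodes fetuin-A, an inhibitor of calcification (chr3:186613060-186621318, plus strand), and had 2 sites inside it in all 6 libraries without a promoter region. The exonic site 4163 bp downstream (chr3:186617015-186617430) had pileups of 46, 65 and 71 in DMSO and 56, 75 and 16 in SNDX-5613 libraries. Its heights were 46.1, 49.8 and 49.1 against 44.4, 49.7 and 75.8, so that the higher SNDX-5613 mean came from replicate 3 alone (exact permutation p = 0.8). The intronic site 1977 bp downstream was weaker, with heights of 17.1, 21.5 and 24.9 in DMSO and 15.1, 23.2 and 42.7 in SNDX-5613 libraries (exact permutation p = 0.8). In both sites the groups overlapped and SNDX-5613 replicate 3 was the highest library, at pileups of 16 and 9. Another site, 3409 bp upstream, was called in the 5 deeper libraries at percentiles of 76.5, 71.02 and 77.9 in DMSO and 69.2 and 74.9 in SNDX-5613 replicates 1 and 2. It was absent from SNDX-5613 replicate 3, and the reason was not tested. The site at 1977 bp, of lower percentile in the other libraries, was called there at its highest height, 42.7. Of the neighbours, FETUB had a promoter region in SNDX-5613 replicate 1 only, and HRG and KNG1 in 0.

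**Figure D4:**
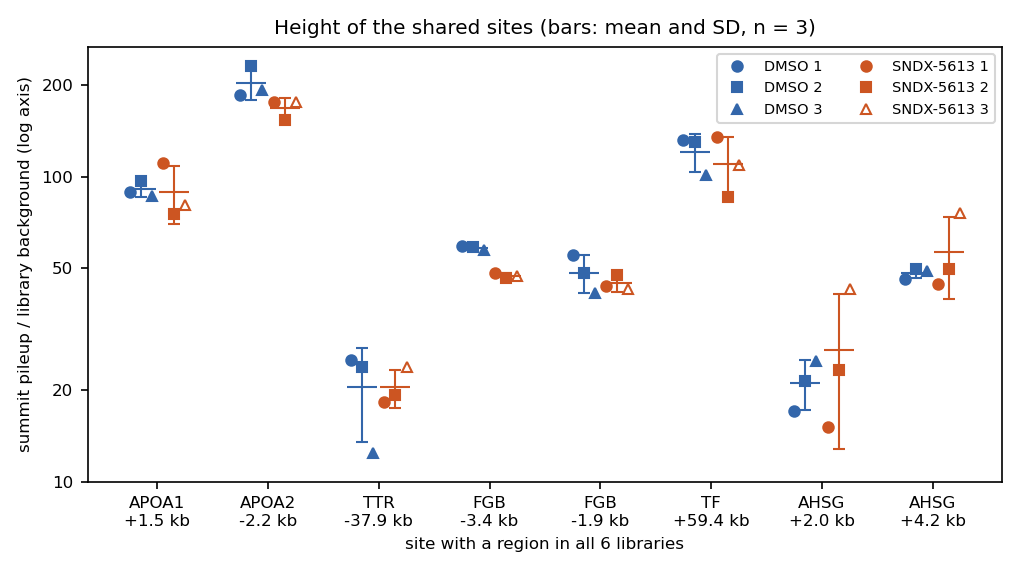
Height, the summit pileup over the library's background pileup (log axis, no unit), of the 8 sites seen in all 6 libraries (horizontal axis), with 1 point for each library and bars for the mean and SD of 3 libraries. The 3 SNDX-5613 points (orange) lie below the 3 DMSO points (blue) at the APOA2 site and the more distant of the FGB sites and overlap with them at the other 6 sites.

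Over the 8 sites seen in all 6 libraries, heights in SNDX-5613 were below all DMSO heights at 2 sites, against 12.6% of the 33405 shared sites, and above them at 0, against 5.63%. By rank among shared sites, 1 of 8 was lower, against 8.08%, and 0 were higher, against 8.54%. The median log2 ratio of mean heights, SNDX-5613 over DMSO, was -0.07 at the 8 sites and -0.09 over all shared sites. Sites not called in SNDX-5613 replicate 3 do not enter these ratios. Single sites ranged from -0.30 at FGB, 3417 bp upstream, to 0.35 at AHSG, 1977 bp downstream. The exact tests of these sites numbered 24 (8 sites by 3 measures), of which 3 reached the smallest p of 0.1, and the lowest Benjamini-Hochberg adjusted value was 0.8. The limma fit, on normal scores of ranks with Benjamini-Hochberg adjustment over all 33405 sites, called 65 higher (0.195%) and 9 lower (0.0269%) at an adjusted p under 0.05. At the secretory genes it called 0 of 8, with 0 of 8 under 0.05 before adjustment and 0 of 8 again when the fold enrichment was ranked. A p that misses the threshold here does not show equal accessibility, since a change at a single site can reach no less than 0.1 in the exact test.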

How the data were processed

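ATAC-seq was performed on 6 libraries of HLF cells, 3 per group, as the labels give them. Per the submitters' processing notes, the authors used Trim Galore 0.6.7, Bowtie2 2.3.4.1, Picard 2.20.0, SAMtools, deepTools 3.5.4 and MACS2 on hg38. Whether reads were moved to the Tn5 insertion point, whether marked duplicates were removed and whether a blacklist was applied is not given in the sources used here. An unmoved read shifts a summit by a few bases, well inside the distances used, while unfiltered repeats could add regions.

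The deposited peak lists, called per library by the authors, give for each summit a score, a fold enrichment over local background, the -log10 p-value and the -log10 q-value. The consensus sets deposited by the authors give regions with a score, of which the regions alone were used. Neither holds read counts, so the read-count model of the study was not fitted.

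Summits sharing a region were merged, keeping the strongest. On chromosomes 1 to 22, X and Y, regions that overlapped by at least 1 bp were joined into sites, and 4025 summits on other contigs were dropped. Genes and starts were from GENCODE 44. Fold, (pileup + 1) / (background + 1), and p, a Poisson tail, were solved for a whole pileup, which was found (within 0.01 in -log10 p) for every site of the 10 genes. The most frequent background gave relative depth. Intervals on pileups cover counting error only.

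Values per library were compared by two-sided exact permutation tests over the 10 splits of 3 against 3 libraries. Shared sites were fitted in limma 3.58.1 (R 4.3.3) on normal scores of ranks within each library, with Benjamini-Hochberg adjustment, and the code was tested on simulated data. Other steps used Python 3.11.15, pandas 2.3.3 and scipy 1.17.1. The 10 genes, the other lists, the motifs and the tests were chosen with earlier results of these data known. All sites of the 10 genes were named, except that for genes with over 4 sites those at promoters, gained or lost, and the 3 of highest mean percentile were. Other secretory genes were named where they neighbour the 10 or had a promoter region in all 6 libraries. Alternatives were a promoter distance of 3 kb, canonical starts only, -log10 q of at least 3, equal list lengths, placement by overlap, windows of 50 kb or promoter and gene body, coverage of 50% of a site, fixed windows, ranking by fold or among shared sites, another scale, the replicate block and leaving out each library. Canonical starts and ranking among shared sites were chosen after seeing the data. Per the study's methods each replicate was a dish divided between the treatments, so same-numbered libraries may be pairs, though the sources do not state that the numbers mark the dish. Deviations of same-numbered libraries from their group means correlated at 0.0164, 0.000532 and 0.00698 over shared sites, and the paired fit is given as the replicate block. Of the listed liver factors and motifs, 1 item is not reported here.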

Additional observations from a re-analysis of the deposited data

How the results depend on the processing

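SNDX-5613 replicate 3, with a background pileup at 16.2% of the median of the others, had the shortest list. With equal list lengths the difference (SNDX-5613 minus DMSO) turned from -4 to 0.333 in regions at the 10 genes and from -4.33 to 0.333 in genes of the 71 with a promoter region. Leaving out each library gave -6.67 to -0.167 regions, -0.833 to 1.17 of the 10 genes with a promoter region and -8.17 to 1.33 of the 71, the 1.33 being without SNDX-5613 replicate 3. Each p stayed at or above 0.1, which is the least these exact tests can give, so it does not bear on robustness. Within 3 kb the means of the 10 genes were 6.33 and 6.67 in place of 2.33 and 2.33, and the difference in the 71 was -8 (exact permutation p = 0.7). Lost sites at the 10 genes went from 1 to 0 with equal list lengths and 0 with coverage of 50% of a site, and to 1 to 2 with a library left out: 2 without DMSO replicate 1 (adding APOC3, 4248 bp upstream) and 2 without SNDX-5613 replicate 1 (adding APOA2, 3921 bp upstream). Gained sites were 0 to 1, the 1 being TF, 1810 bp downstream, without SNDX-5613 replicate 3. The cause of the changes at equal list length was not tested.

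Of 79 alternative values for the percentile of the 8 shared sites, 65 kept their direction and 14 turned. None had a p under 0.05, a level that these exact permutation tests cannot reach. Ranked among shared sites, the differences in percentile points turned to 1.56 at APOA1 (1461 bp), 0.147 at TF (59358 bp), 5.94 at AHSG (1977 bp) and 8.89 at AHSG (4163 bp). Without SNDX-5613 replicate 3 they turned to 1.96 at APOA1 (1461 bp), 1.69 at TTR (37902 bp), 0.383 at TF (59358 bp), 2.38 at AHSG (4163 bp) and 2.21 at FGB (1926 bp). Without DMSO replicate 2 they turned to 0.0234 at AHSG (1977 bp) and 0.347 at AHSG (4163 bp), without DMSO replicate 3 to 3.21 and 0.658, and without SNDX-5613 replicate 1 to 0.433 at AHSG (1977 bp). Over the libraries left out, the difference ranged from -3.61 to -0.861 at APOA2 (2238 bp), -9.28 to 1.96 at APOA1 (1461 bp), -18.5 to 1.69 at TTR (37902 bp), -4.99 to 0.383 at TF (59358 bp), -11.4 to 3.21 at AHSG (1977 bp), -3.09 to 2.38 at AHSG (4163 bp), -18.4 to -2.13 at FGB (3417 bp) and -17.03 to 2.21 at FGB (1926 bp).

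In the limma fit, sites called over the genome went from 65 higher and 9 lower to 102 and 13 on quantile-normalised log2 values, to 0 and 0 by fold enrichment (2423 at an unadjusted p under 0.05) and to 50 and 3 at -log10 q of at least 3. With a library left out they were 14 to 217 higher and 0 to 130 lower, the 217 and 130 being without SNDX-5613 replicate 3. Sites of the 10 genes were called in 0 of these fits. Before adjustment, 1 of their sites was under 0.05 without DMSO replicate 1. It was APOA2, 2238 bp upstream, with a limma p of 0.0111 and an adjusted p of 0.673. With the replicate block the differences were 0 genes with a promoter region (exact p = 1), -4 regions (exact p = 0.5) and -4.33 genes of the 71 (exact p = 0.75), and limma called 63 higher and 10 lower, 0 at the 10 genes. The block changed no call at the 10 genes and moved no count by over 1.5 times. With 3 pairs an exact test of a single value cannot go below p = 0.25.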
